A study of Rattus norvegicus with 12 samples.

Results

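Transcripts of 42 enzymes that carry glucose carbon through glycolysis, pyruvate entry, the TCA cycle and the redox shuttles were measured by bulk RNA-seq in INS-1E cells. The 42 genes were chosen by symbol for their steps in the pathway, with no threshold on their changes but with earlier results of these data known, and form 4 groups: 14 genes of glycolysis, 11 of lactate and pyruvate entry, 11 of the TCA cycle and 6 of the shuttles. Of these, 38 exceeded 1 CPM (counts scaled to a common library size of 1e6) in at least 2 of 12 libraries and were tested among 14324 genes, out of 34034 gene symbols in the count table. INS-1E is a rat insulinoma β-cell line, wild type by its label, so the groups describe this line in culture and not islets or animals. All cells were grown in medium with 11 mM glucose and 1 mM pyruvate. The 4 groups of 3 libraries, labelled as biological replicates, were untreated cells, cells conditioned with 10 pg/ml IL-1β for 72 h with cytokine added again every 24 h (IL-1βlow), cells challenged for 16 h with 100 pg/ml IL-1β and 5 ng/ml IFN-γ (CYT), and cells given both in that order (IL-1βlow + CYT). The medium was renewed before the challenge. Whether unchallenged cells also received fresh medium at that point is not given in the sources used here.

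In a β-cell, glucose metabolism is the signal for insulin release. Glucose enters through glucose transporters, is phosphorylated, and is split by glycolysis to pyruvate, which mitochondria oxidise through pyruvate dehydrogenase or carboxylate through pyruvate carboxylase. The ATP that results closes potassium channels. β-cells keep low-Km hexokinase and lactate dehydrogenase A scarce, so that pyruvate goes to mitochondria, and rely on the glycerol phosphate and malate-aspartate shuttles to reoxidise cytosolic NADH. Pyruvate dehydrogenase kinases switch pyruvate dehydrogenase off.

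Levels are given as CPM after TMM normalisation, with the 3 libraries of a group in replicate order. A gene was called higher or lower, and is said to have risen or fallen, when the quasi-likelihood test of edgeR gave a Benjamini-Hochberg adjusted p under 0.01 over all 14324 genes. Every adjusted p below comes from this test unless another is named. The p-values measure the spread between these cultures of 1 line.

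CYT raised 13 enzymes and lowered 8 of the 38 tested. The direction differed between isozymes among the enolases, the pyruvate dehydrogenase kinases and the β subunits of succinyl-CoA ligase, the value of Eno1 being uncertain. The called phosphofructokinases and aminotransferases all rose. Aldolase A, neuronal-type enolase (Eno2), platelet-type phosphofructokinase (Pfkp), Pdk2, Idh2 and Got1 rose, while Eno1, Pkm, Pdhb, Pdk3, Ogdh and the mitochondrial glycerol-3-phosphate dehydrogenase Gpd2 fell. The largest changes were a 3.33-fold rise of Pdk2 and a 3.58-fold fall of Gpd2. The share called, 21 of 38, was close to the 49.7% of all genes tested that were called in this comparison. The share of higher calls was 25.2% and that of lower calls 24.5% over all genes. Past the study's 2-fold minimum (1 on the log2 scale) 5 members remained, Aldoa, Eno2, Pdk2 and Idh2 higher and Gpd2 lower, beside 21.6% of all genes. In bulk RNA, fewer cells of a kind and less RNA per cell cannot be told apart.

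**Figure D1:**
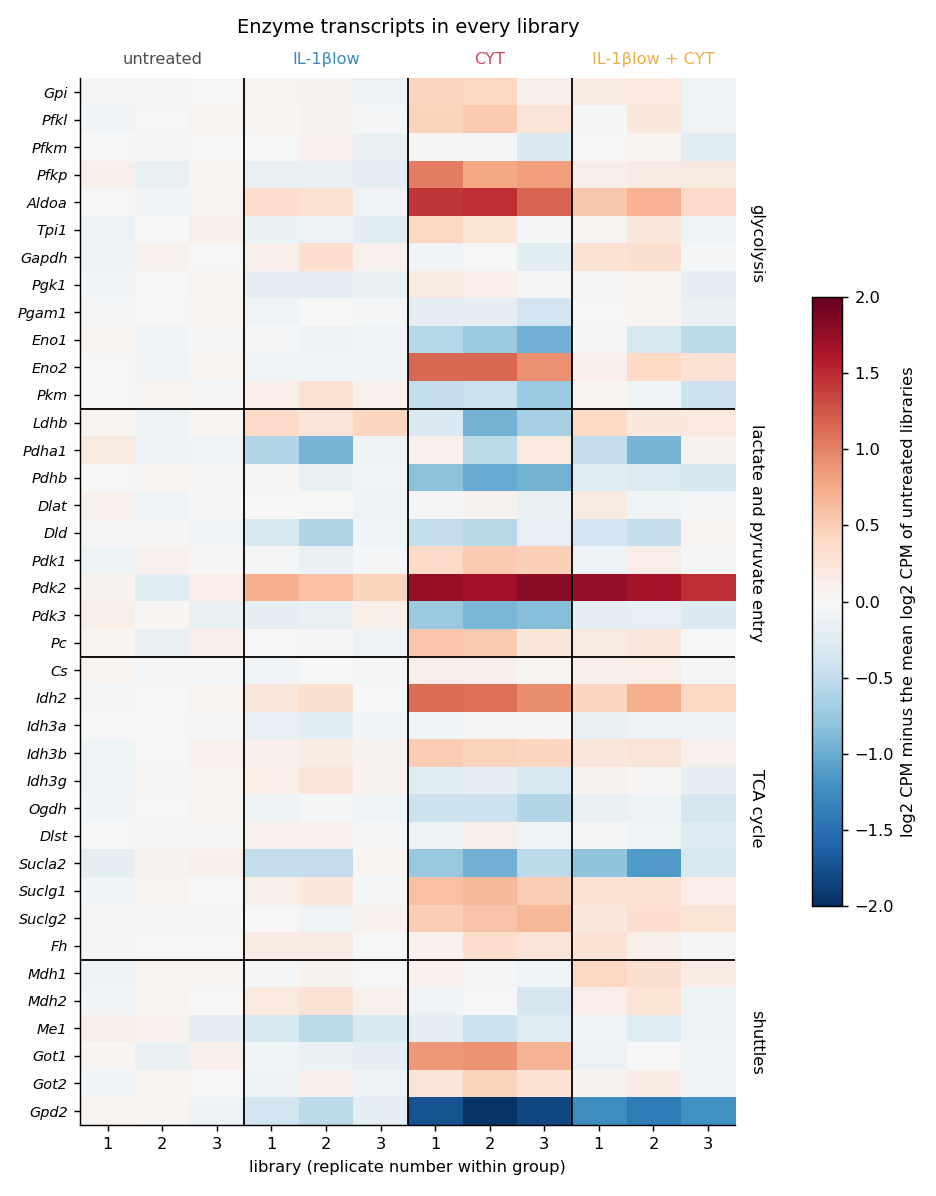
Log2 CPM of each of the 38 tested enzymes (rows, by step) in each of 12 libraries (columns, by group), with the mean log2 CPM of the untreated libraries subtracted; red is higher and blue lower, and the colour scale ends at 2 in both directions. Aldoa, Eno2, Pdk2 and Idh2 are red and Gpd2 is blue in all 3 CYT libraries. Each keeps its direction in the IL-1βlow + CYT libraries, where Aldoa, Eno2 and Idh2 are a paler red than in the CYT ones.

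Promoter sequence is shown for 3 of the enzymes that rose past the 2-fold minimum, because the known hypoxia response core (ACGTG or GCGTG) and the E-box CACGTG were searched in the promoters of the set. The sequences are from RefSeq on GRCr8, end at the last base before the outermost annotated start of the gene, and are printed 5′ to 3′ on the gene's strand. Capitals mark ACGTG or GCGTG on either strand.
Eno2, chr4:159267221-159267470, minus strand: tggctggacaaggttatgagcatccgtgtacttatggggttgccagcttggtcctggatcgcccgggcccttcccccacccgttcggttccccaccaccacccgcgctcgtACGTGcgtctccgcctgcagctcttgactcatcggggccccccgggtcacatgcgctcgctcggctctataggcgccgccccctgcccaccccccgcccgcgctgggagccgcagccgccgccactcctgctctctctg
Pdk2, chr10:80483989-80484162, minus strand: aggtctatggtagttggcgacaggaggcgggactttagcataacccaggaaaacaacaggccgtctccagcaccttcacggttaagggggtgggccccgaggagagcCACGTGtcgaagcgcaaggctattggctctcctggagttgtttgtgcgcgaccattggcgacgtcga
Idh2, chr1:143467249-143467498, minus strand: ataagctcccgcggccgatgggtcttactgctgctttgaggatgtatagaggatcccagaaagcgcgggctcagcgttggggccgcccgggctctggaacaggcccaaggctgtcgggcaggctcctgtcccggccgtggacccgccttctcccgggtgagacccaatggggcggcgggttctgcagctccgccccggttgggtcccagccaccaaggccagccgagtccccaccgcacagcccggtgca
The Eno2 sequence holds the core once, the Pdk2 sequence holds an E-box, in which the core reads on both strands, and the Idh2 sequence holds neither. Aldoa, which also rose past the 2-fold minimum, is not printed. The 250 bases before its outermost start hold 0 matches to the core, and 1 match lies before another annotated start. The core lay within 250 bases upstream of an annotated start in 24 of the 39 members with a promoter entry, in 39.6% of 27457 genes and in 36.7% of all 33469 promoter windows. It was found in 8 of 12 enzymes that rose with CYT and in 5 of 8 that fell. CACGTG, which contains the core, lay in 4 of the 39 members and in 6.18% of genes. A match to these letters is a description and not a binding site.

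Of the glycolytic enzymes, Hk1 had 0 counts in every library. Hk2 had 2 counts in untreated replicate 2, 1 count in CYT replicate 3 and 0 elsewhere, so its highest value was 0.118 CPM. Over 211580473 counts in all libraries, a count of 0 allows a level of counted reads of up to 0.0142 CPM, by 3 counts. Strand and multi-mapping settings of the counting are not given in the sources used here. A count of 0 therefore limits counted reads and not the transcript. These are the low-Km hexokinases that β-cells keep scarce. Whether scarcity or the counting gave these values was not tested, and no group difference could be measured. No count was recorded for 28.8% of the symbols listed. The lowest value of any tested enzyme in any library was that of Ldhb, at 10.0 CPM in CYT replicate 2.

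Phosphofructokinase commits glucose carbon to glycolysis, and 3 genes encode its subunits. Pfkp was at 67.8, 57.1 and 64.9 CPM in untreated cells, 56.7, 57.0 and 55.2 in IL-1βlow, 128, 107 and 112 in CYT and 68.6, 70.9 and 71.1 in IL-1βlow + CYT cells. The CYT libraries lay above all others, and the IL-1βlow + CYT libraries lay just above the untreated ones. Pfkp rose with CYT by a log2 fold change of 0.87 (SE 0.0875, adjusted p = 9.80e-07) and was lower by -0.72 in IL-1βlow + CYT than in CYT cells (SE 0.0871, adjusted p = 1.19e-05). Pfkl, the liver-type subunit, moved the same way by 0.41 and then -0.37. Its second call was lost without IL-1βlow + CYT replicate 1, CYT replicate 2 or IL-1βlow + CYT replicate 3 (adjusted p up to 0.0208). Pfkm, the muscle-type subunit, was not called in either comparison (-0.09 and 0.03).

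Aldolase A (Aldoa) cleaves fructose 1,6-bisphosphate. It was at 61.5, 59.8 and 64.4 CPM in untreated, 79.1, 75.5 and 59.0 in IL-1βlow, 167, 172 and 139 in CYT and 90.3, 100 and 80.8 in IL-1βlow + CYT cells. The groups with CYT did not overlap with each other or with untreated cells. Aldoa rose 2.57-fold with CYT (log2 1.36, SE 0.119, adjusted p = 2.37e-07) and was 1.76-fold lower after preconditioning and CYT than after CYT alone (log2 -0.82, SE 0.117, adjusted p = 5.65e-05). It remained above untreated cells by 0.55 on the log2 scale (SE 0.119, adjusted p = 0.00366). That last call was lost without any of the untreated libraries, IL-1βlow + CYT replicate 1 or IL-1βlow + CYT replicate 2, with adjusted p between 0.0117 and 0.0234.

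Gapdh, often used to scale PCR, was at 440, 501 and 475 CPM in untreated, 509, 594 and 499 in IL-1βlow, 452, 470 and 405 in CYT and 575, 589 and 460 in IL-1βlow + CYT cells. The ranges of untreated, CYT and IL-1βlow + CYT libraries overlapped. The IL-1βlow libraries lay above the CYT ones, but these groups were not compared by a test. Gapdh was not called in any comparison tested, with log2 fold changes of -0.10 (SE 0.107) for CYT against untreated and 0.29 (SE 0.107, adjusted p = 0.0334) for IL-1βlow + CYT against CYT. When the replicate number entered as a block, the latter reached an adjusted p of 0.00463. It did the same without IL-1βlow + CYT replicate 3, at 0.40 and an adjusted p of 0.00358. Gpi, Tpi1, Pgk1 and Pgam1, which catalyse the reversible steps around it, were not called either, with CYT log2 fold changes of 0.32, 0.23, 0.11 and -0.25. Gpi had an adjusted p of 0.0124 and was called by exactTest (0.00591), by DESeq2 (0.00327), with the replicate block (0.00114), with RLE size factors, with no filter, with at least 10 counts in every library and with only the groups compared. Pgam1 (adjusted p = 0.0144) was called by exactTest (0.00883), with the replicate block (0.00451), with total counts and with at least 10 counts in every library. Without CYT replicate 3, Gpi reached 0.00132 and Tpi1 0.00561. Gpi also passed without IL-1βlow replicate 2, IL-1βlow + CYT replicate 1 or IL-1βlow + CYT replicate 3, and Pgam1 without the last of these (adjusted p = 0.00868). Between IL-1βlow + CYT and CYT cells Gpi differed by -0.22, and by -0.35 without CYT replicate 3 (adjusted p = 0.00980).

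The enolases moved in opposite directions. Eno2 was at 94.5, 89.5 and 97.1 CPM in untreated, 89.4, 90.7 and 90.5 in IL-1βlow, 208, 208 and 176 in CYT and 100, 123 and 114 in IL-1βlow + CYT cells. CYT libraries were the highest, and IL-1βlow + CYT libraries lay between them and the untreated ones. Eno2 rose 2.11-fold with CYT (log2 1.08, SE 0.091, adjusted p = 1.68e-07) and was lower by -0.81 after preconditioning (SE 0.0903, adjusted p = 5.83e-06). Eno1, the ubiquitous enolase, fell from 443 ± 16 CPM to 263 ± 36 (SD, n = 3) with CYT, a log2 fold change of -0.75 (SE 0.121, adjusted p = 9.41e-05). It was higher by 0.47 after preconditioning, at 365 ± 67 CPM (SD, n = 3, adjusted p = 0.00477). This was lost without IL-1βlow + CYT replicate 1, CYT replicate 2 or CYT replicate 3 (adjusted p up to 0.0388). Reads of Eno1 can be shared with processed copies, since the 2 listed as Eno1-ps6 and Eno1-ps20 held 119331 counts against 78401 for Eno1 and fell by 0.70 and 0.76 with CYT, so the value of Eno1 is uncertain. Pkm, the last glycolytic enzyme, fell with CYT by 0.55 (adjusted p = 0.00081). It was higher by 0.40 after preconditioning, a call lost in 10 of the 12 fits that left out a library, those without IL-1βlow replicate 3 and IL-1βlow + CYT replicate 3 keeping it (adjusted p up to 0.0698).

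**Figure D2:**
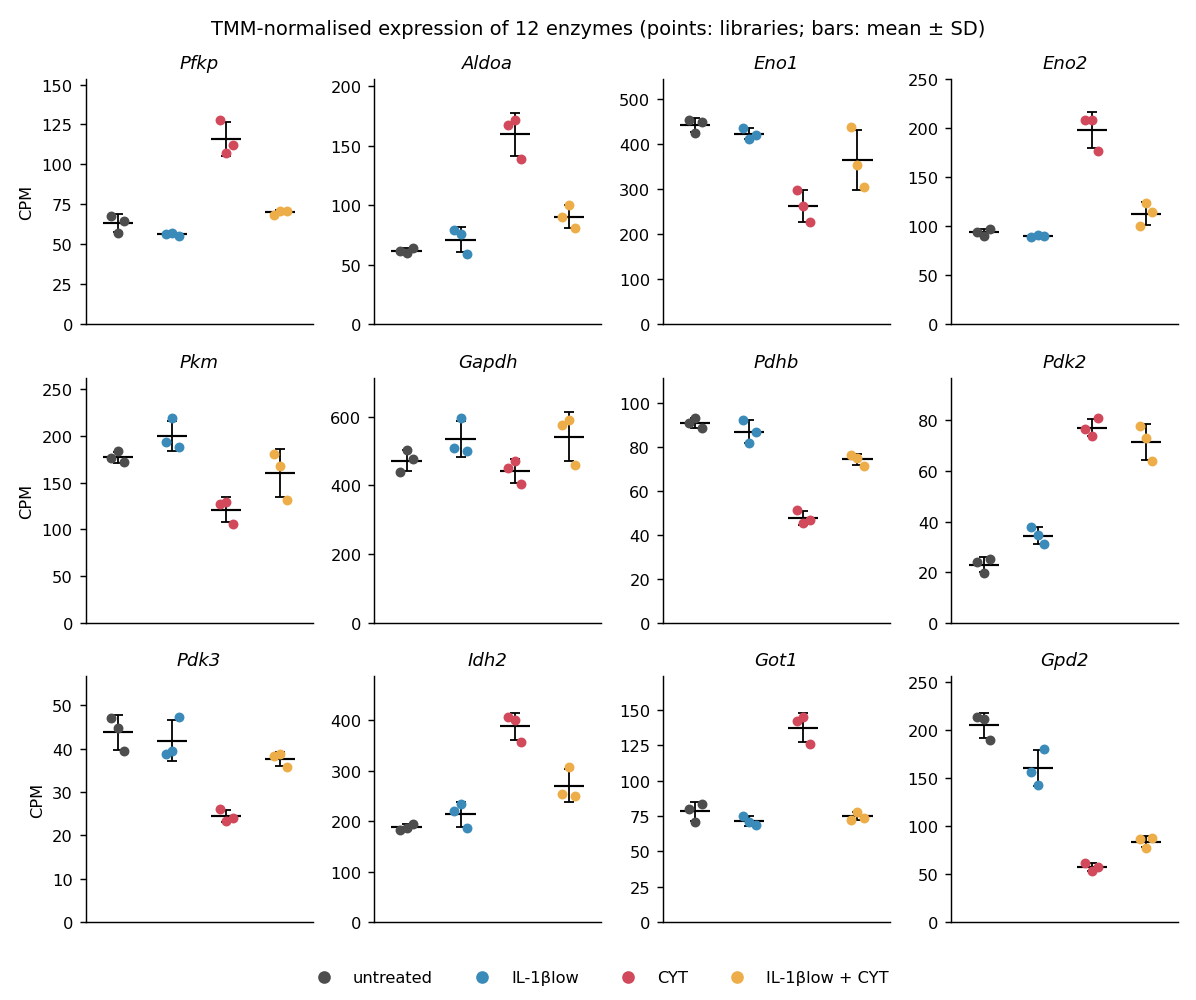
CPM (vertical axis, from 0) of 12 enzymes in the 4 groups; points are libraries in replicate order, long bars means and short bars 1 SD. The CYT libraries of Aldoa lie between 139 and 172 CPM against 59.8 to 64.4 in untreated cells, and those of Gpd2 between 52.7 and 61.1 against 190 to 213. For Gapdh the untreated, CYT and IL-1βlow + CYT libraries overlap, while the IL-1βlow libraries lie above the CYT ones.

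Lactate dehydrogenase turns pyruvate into lactate. Ldha, the muscle-type subunit that β-cells keep low, had 0 counts in every library, with the upper limit given for Hk1. RefSeq lists 30 processed copies of Ldha, and none of them is a row of the count table. How reads that map to several places were counted is not given in the sources used here, so a count of 0 for Ldha limits counted reads and not the transcript. Other members have copies in RefSeq too, among them Gapdh (81), Pkm (19), Pgam1 (13) and Aldoa (9), so their levels carry the same uncertainty. Ldhb, the heart-type subunit, went from 19.3 ± 1.2 CPM in untreated cells to 12.7 ± 2.9 with CYT (SD, n = 3), a fall of 0.60 on the log2 scale (SE 0.145, adjusted p = 0.00241). It was higher by 0.87 in IL-1βlow + CYT than in CYT cells (SE 0.145, adjusted p = 0.000203). The fall with CYT was lost without CYT replicate 2, CYT replicate 3, untreated replicate 1 or untreated replicate 3, at adjusted p of 0.0104 to 0.0130.

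Pyruvate dehydrogenase admits pyruvate to the TCA cycle as acetyl-CoA. Of its subunits, Pdhb, the E1 β chain, fell. It was at 91.0, 93.0 and 88.6 CPM in untreated, 92.2, 81.7 and 87.0 in IL-1βlow, 51.4, 45.4 and 47.0 in CYT and 76.6, 75.2 and 71.4 in IL-1βlow + CYT cells. The CYT libraries were the lowest, and the IL-1βlow + CYT libraries lay below all untreated ones. The fall was 1.90-fold (log2 -0.92, SE 0.0792, adjusted p = 1.95e-07), and IL-1βlow + CYT cells were higher than CYT cells by 0.63 (SE 0.0792, adjusted p = 1.63e-05). Pdha1, the E1 α chain, was not called (-0.06, SE 0.244), and neither were Dlat (E2) at -0.04 and Dld (E3) at -0.39 (adjusted p = 0.0497). Pdha1 spread widely between libraries, at 29.2 ± 10 CPM in IL-1βlow + CYT cells (SD, n = 3).

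The kinases that inactivate this complex also moved apart. Pdk2 was at 24.2, 19.9 and 25.2 CPM in untreated, 37.7, 34.6 and 31.2 in IL-1βlow, 76.5, 73.8 and 80.6 in CYT and 77.6, 72.9 and 63.8 in IL-1βlow + CYT cells. All challenged libraries lay above all unchallenged ones, and the IL-1βlow libraries lay above the untreated ones. The rise with CYT was 1.74 on the log2 scale (SE 0.112, adjusted p = 9.94e-09). IL-1βlow + CYT cells were still 3.09-fold above untreated cells (log2 1.63, adjusted p = 7.05e-08) and were not called against CYT cells (-0.11, 95% interval -0.34 to 0.12). Pdk3 was at 47.1, 44.7 and 39.4 CPM in untreated, 38.7, 39.5 and 47.3 in IL-1βlow, 26.0, 23.2 and 24.1 in CYT and 38.3, 38.9 and 35.7 in IL-1βlow + CYT cells. Its CYT libraries were below all others. It fell by 0.84 with CYT (SE 0.105, adjusted p = 8.90e-06) and was higher by 0.62 after preconditioning (SE 0.105, adjusted p = 0.000223). Pdk1 rose by 0.46 and was then lower by -0.46. Pdk4 had 0 counts in every library, with the limits given for Hk1.

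Pyruvate carboxylase (Pc) makes oxaloacetate from pyruvate and is abundant in β-cells. It was at 107, 94.7 and 112 CPM in untreated, 105, 102 and 96.2 in IL-1βlow, 154, 150 and 124 in CYT and 117, 121 and 105 in IL-1βlow + CYT cells. CYT libraries lay above the rest. Pc rose by 0.44 with CYT (SE 0.0982, adjusted p = 0.00127). The difference between IL-1βlow + CYT and CYT cells, -0.32 (SE 0.0979), had an adjusted p of 0.0145 and of 0.00556 with the replicate block. It was called as well by exactTest (0.00807), by DESeq2 (0.00618), with no filter (0.00669) and with at least 10 counts in every library (0.00740). It also passed without CYT replicate 3 (-0.44, adjusted p = 0.00193), IL-1βlow replicate 2 or untreated replicate 2. Pc overlaps Lrfn4 in the annotation, which held 28122 counts, and the strand setting of the counting is not given in the sources used here.

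In the TCA cycle, 4 of 11 enzymes rose with CYT, 2 fell and 5 were not called, a share called of 54.5% beside 49.7% of all genes. The mitochondrial NADP-dependent isocitrate dehydrogenase, Idh2, was at 183, 187 and 195 CPM in untreated, 221, 234 and 186 in IL-1βlow, 406, 402 and 358 in CYT and 254, 308 and 251 in IL-1βlow + CYT cells. CYT libraries were highest, and those of IL-1βlow + CYT lay between them and the untreated ones. Idh2 rose 2.07-fold with CYT (log2 1.05, SE 0.103, adjusted p = 7.85e-07), was lower by -0.52 after preconditioning (SE 0.102, adjusted p = 0.000714) and stayed above untreated cells by 0.52 (adjusted p = 0.00164). That last call was lost without untreated replicate 1, untreated replicate 2 or IL-1βlow + CYT replicate 2, at adjusted p of 0.0105 to 0.0131.

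Succinyl-CoA ligase, which makes a nucleotide triphosphate in the cycle, pairs the α subunit Suclg1 with an ADP-forming β subunit, Sucla2, or a GDP-forming one, Suclg2. Suclg1 was at 208, 225 and 215 CPM in untreated, 234, 249 and 213 in IL-1βlow, 323, 340 and 305 in CYT and 263, 265 and 237 in IL-1βlow + CYT cells. CYT libraries were highest and IL-1βlow + CYT libraries lay above all untreated ones. It rose by 0.58 with CYT (SE 0.0816, adjusted p = 2.79e-05) and was then lower by -0.34 (adjusted p = 0.00318), a call lost without CYT replicate 2 or IL-1βlow + CYT replicate 3 (adjusted p up to 0.0166). Suclg2 followed the same course, 0.57 with CYT and -0.30 after preconditioning, the second lost without CYT replicate 2, CYT replicate 3, IL-1βlow + CYT replicate 1 or IL-1βlow + CYT replicate 3 (adjusted p up to 0.0161).

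Sucla2 moved the other way. It was at 26.2, 31.0 and 31.7 CPM in untreated, 21.1, 20.9 and 30.2 in IL-1βlow, 17.5, 15.2 and 20.6 in CYT and 16.8, 13.5 and 23.7 in IL-1βlow + CYT cells. All challenged libraries lay below the untreated ones, and the 2 challenged groups overlapped. Sucla2 fell by 0.74 with CYT (SE 0.197, adjusted p = 0.00494), a call lost without CYT replicate 1, CYT replicate 2, untreated replicate 2 or untreated replicate 3 (adjusted p of 0.0201 to 0.0261). It differed by 0.01 between IL-1βlow + CYT and CYT cells, with a 95% interval of -0.41 to 0.44. Against untreated cells the IL-1βlow + CYT group differed by -0.72 (adjusted p = 0.0166), which passed at -0.97 without IL-1βlow + CYT replicate 3 (adjusted p = 0.00105) and at -0.72 without IL-1βlow replicate 3 (adjusted p = 0.00907). It was also called there by exactTest (0.00376), by DESeq2 (0.00270), with no filter (4.04e-05) and with the replicate block (0.000373).

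Of the NAD-dependent isocitrate dehydrogenase, which makes 2-oxoglutarate, the subunit Idh3b rose by 0.46 with CYT (adjusted p = 0.000109) and was then lower by -0.27. That second call was lost in 7 of 12 fits that left out a library, those without each CYT or IL-1βlow + CYT library except CYT replicate 3, and those without untreated replicate 3 or IL-1βlow replicate 3 (adjusted p up to 0.0345). Idh3a and Idh3g were not called, at -0.02 and -0.23. Idh3b overlaps Nop56 in the annotation, which held 21756 counts against 21546 for Idh3b. Ogdh, the E1 subunit of 2-oxoglutarate dehydrogenase, fell by 0.48 (adjusted p = 0.000124) and was then higher by 0.29. Its second call was lost in every fit that left out a library except the one without IL-1βlow + CYT replicate 3 (adjusted p up to 0.0668). Citrate synthase (Cs), which starts the cycle, was at 364 ± 10 CPM in untreated and 387 ± 8.8 in CYT cells (SD, n = 3) and was not called (0.09, 95% interval -0.06 to 0.24). Dlst, the E2 subunit of that complex, and fumarase (Fh) were not called, at -0.02 and 0.23. Fh passed without CYT replicate 1 (0.34, adjusted p = 0.00696).

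The shuttle enzyme Gpd2, the mitochondrial enzyme of the glycerol phosphate shuttle, showed the largest fall. It was at 213, 211 and 190 CPM in untreated, 157, 143 and 180 in IL-1βlow, 61.1, 52.7 and 57.7 in CYT and 86.5, 76.7 and 87.9 in IL-1βlow + CYT cells. The 4 groups did not overlap, in the order untreated, IL-1βlow, IL-1βlow + CYT and CYT. The fall with CYT was 1.84 on the log2 scale (SE 0.101, adjusted p = 1.89e-09). After preconditioning Gpd2 was higher than with CYT alone by 0.55 (SE 0.0994, adjusted p = 0.000392) and 2.44-fold below untreated cells (log2 -1.29, SE 0.0989, adjusted p = 2.09e-07). For IL-1βlow against untreated cells its log2 fold change was -0.36 (SE 0.0969), with an adjusted p of 0.103.

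In the malate-aspartate shuttle, the cytosolic aminotransferase Got1 was at 80.0, 71.0 and 83.7 CPM in untreated, 75.0, 70.8 and 68.5 in IL-1βlow, 142, 145 and 126 in CYT and 72.2, 77.7 and 73.9 in IL-1βlow + CYT cells. CYT libraries stood above the rest, and the IL-1βlow + CYT libraries lay within the untreated range. Got1 rose by 0.81 (SE 0.0857, adjusted p = 1.61e-06) and was lower by -0.88 after preconditioning (SE 0.0858, adjusted p = 1.74e-06). The mitochondrial Got2 was at 304, 324 and 318 CPM in untreated, 294, 338 and 294 in IL-1βlow, 374, 428 and 383 in CYT and 331, 348 and 301 in IL-1βlow + CYT cells. Its CYT libraries were also the highest. It rose by 0.33 (SE 0.0863, adjusted p = 0.00456), lost without CYT replicate 2, untreated replicate 1 or untreated replicate 3 (adjusted p up to 0.0266). Its difference of -0.27 between IL-1βlow + CYT and CYT cells had an adjusted p of 0.0166, or 0.00202 with the replicate block. That difference was called as well by exactTest (0.00989), by DESeq2 (0.00625) and with at least 10 counts in every library (0.00796). It also passed without CYT replicate 1 (adjusted p = 0.00874) or IL-1βlow replicate 2 (0.00559). The malate dehydrogenases Mdh1 and Mdh2 were not called with CYT (-0.01 and -0.13). Mdh1 was higher by 0.31 in IL-1βlow + CYT than in CYT cells (adjusted p = 0.00894), lost in every fit that left out a library except the one without IL-1βlow + CYT replicate 3 (adjusted p up to 0.0746). Against untreated cells it passed in that fit too, by 0.36 (adjusted p = 0.00548). Malic enzyme Me1, which returns malate to pyruvate, was not called with CYT (-0.29, adjusted p = 0.0211) and passed without untreated replicate 3 (-0.39, adjusted p = 0.00513).

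The study asked what low-dose IL-1β given beforehand does to the response to CYT. Between IL-1βlow + CYT and CYT cells, 18 of 38 enzymes were called, 8 higher and 10 lower, beside 36.3% of all genes tested (17.1% higher and 19.2% lower), and 0 of 38 passed the 2-fold minimum, beside 12.5%. With RLE size factors in place of TMM the split was 5 higher and 10 lower, Pkm, Ogdh and Mdh1 losing their calls, and with total counts it was 8 higher and 8 lower, Idh3b and Suclg2 losing theirs. The lower ones were Pfkl, Pfkp, Aldoa, Eno2, Pdk1, Idh2, Idh3b, Suclg1, Suclg2 and Got1, and the higher ones Eno1, Pkm, Ldhb, Pdhb, Pdk3, Ogdh, Gpd2 and Mdh1. This comparison shares the CYT libraries with that of CYT against untreated cells, so each enzyme's values in the 2 comparisons, given side by side above, are not independent. The count was 10 without CYT replicate 2 and 11 without IL-1βlow + CYT replicate 1. It was 9 when only the 2 groups compared were fitted, where Pfkl, Eno1, Pkm, Pdk1, Idh3b, Ogdh, Suclg1, Suclg2 and Mdh1 lost their calls.

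Against untreated cells, 4 of 38 enzymes were called in IL-1βlow + CYT cells, beside 13.8% of all genes tested (8.24% higher and 5.53% lower). Aldoa, Pdk2 and Idh2 were higher and Gpd2 was lower. Pdk2 and Gpd2 passed the 2-fold minimum, beside 5.99% of all genes. The count was 2 without untreated replicate 1, untreated replicate 2 or IL-1βlow + CYT replicate 2. Of the 38, 13 had an unadjusted p under 0.05, beside 34.0% of all genes.

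IL-1βlow alone gave 0 called enzymes in edgeR's quasi-likelihood test, beside 0.503% of all genes tested, and 5 of 38 with an unadjusted p under 0.05, beside 13.8%. Pdk2 came closest, with a log2 fold change of 0.58 (SE 0.112, adjusted p = 0.0190). It was called by DESeq2 (adjusted p = 0.000295), by edgeR's exactTest (0.000434) and without IL-1βlow + CYT replicate 3 (0.00762), which made the count 1. Over the 4 steps, the log2 fold changes with IL-1βlow spanned -0.17 to 0.20 for glycolysis, -0.50 to 0.58 for lactate and pyruvate entry, -0.30 to 0.18 for the TCA cycle and -0.39 to 0.19 for the shuttles.

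The response to CYT itself differed between preconditioned and other cells for 11 of 38 enzymes, as tested by the interaction, 4 in the positive and 7 in the negative direction, beside 22.6% of all genes tested (10.1% positive and 12.5% negative). Aldoa (-1.02), Eno2, Got1, Idh2, Pdk2, Pfkp and Suclg1 had negative and Gpd2 (0.91), Pdhb, Pdk3 and Me1 positive interactions on the log2 scale. Of these Aldoa passed the 2-fold minimum, beside 10.7% of all genes.

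**Figure D3:**
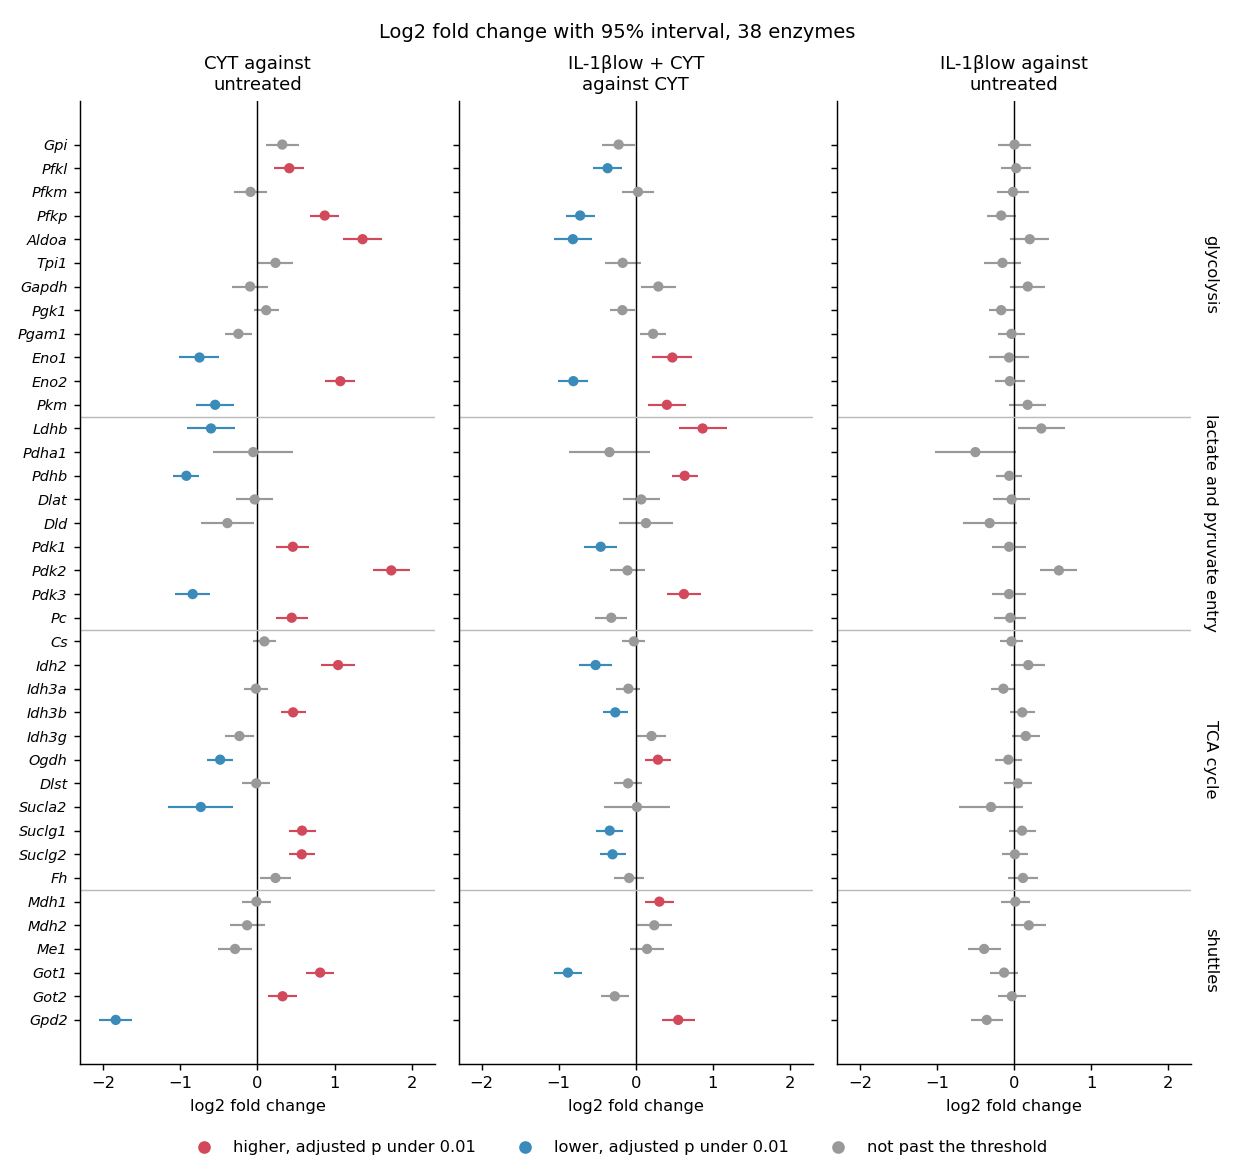
Log2 fold change (horizontal axis) with 95% interval for the 38 tested enzymes by step, for CYT against untreated, IL-1βlow + CYT against CYT and IL-1βlow against untreated; red and blue mark adjusted p under 0.01. The first panel has 13 red and 8 blue points, the second 8 red and 10 blue, and the third none, Pdk2 lying at 0.58.

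The levels were also summed over each step. The glycolytic genes together took 2988 ± 49.3 CPM in untreated and 3048 ± 284 in CYT cells (SD, n = 3), and the ranges overlapped. CYT replicates 1 and 2 (3235 and 3186 CPM) lay above all untreated libraries and CYT replicate 3 (2721 CPM) below them. The TCA cycle genes took 1525 ± 21.3 CPM in untreated cells, 1829 ± 64.0 with CYT and 1639 ± 103 with IL-1βlow + CYT, the CYT libraries lying above all untreated ones. The largest rises within this sum were those of Idh2, from a mean of 188 to 389 CPM, and Suclg1, from 216 to 323. The sum therefore does not describe the cycle's genes as a group. Median log2 fold changes with CYT were 0.17 for glycolysis, -0.06 for lactate and pyruvate entry, 0.09 for the TCA cycle and -0.07 for the shuttles, beside -0.04 over all genes tested.

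Shares within isozyme families were computed next. They are of summed CPM, which are not per length, so they serve to compare groups and not genes, and they are given with no test. Eno2 took 17.5 ± 0.280% of enolase CPM in untreated cells, 43.0 ± 1.69% with CYT and 23.9 ± 4.62% with IL-1βlow + CYT (SD, n = 3). Eno1 enters this share with the uncertainty given above. Pdk2 took 26.0 ± 3.22% of the CPM of Pdk1, Pdk2 and Pdk3 in untreated, 35.5 ± 3.76% in IL-1βlow, 58.5 ± 1.13% in CYT and 54.5 ± 2.25% in IL-1βlow + CYT cells, while Pdk3 went from 49.3 ± 3.33% in untreated to 18.6 ± 1.09% in CYT cells. The Pfkp share of phosphofructokinase was 14.8 ± 1.08% in untreated and 22.6 ± 2.08% in CYT cells. For Suclg2 among the β subunits it was 65.3 ± 1.84% and 82.4 ± 1.80%. In each of these families the CYT libraries did not overlap with the untreated ones.

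**Figure D4:**
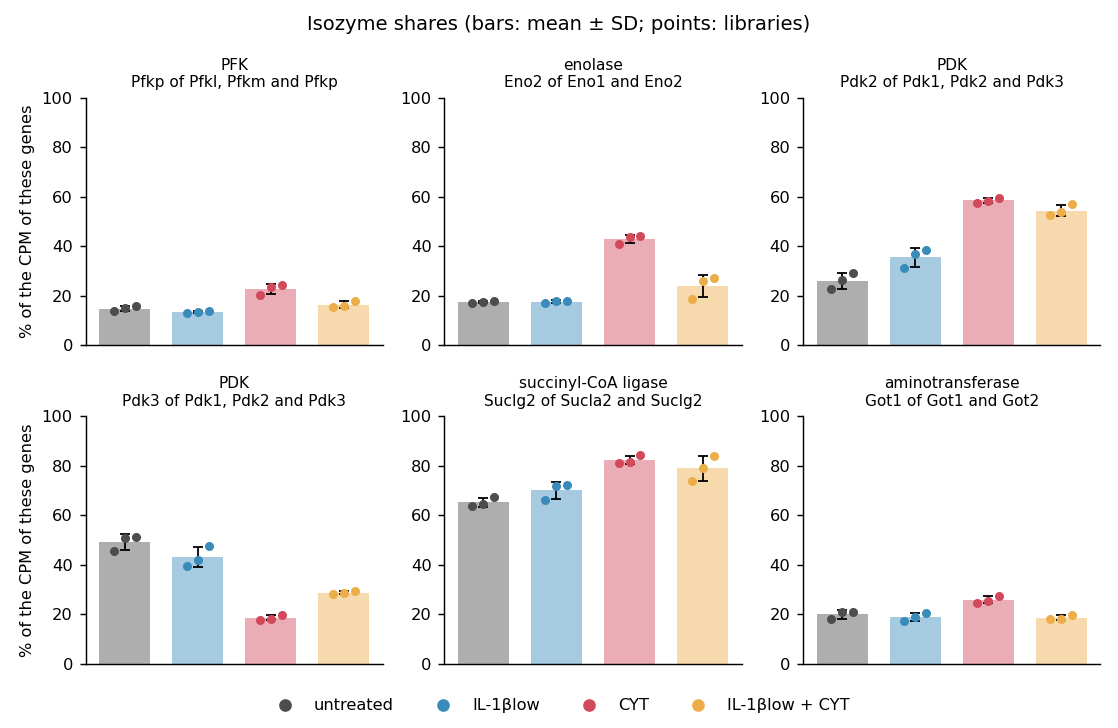
Share of an isozyme in the summed CPM of its family (percent, from 0 to 100) in the 4 groups; bars are means with 1 SD and points the 3 libraries from lowest to highest. Eno2 goes from 17.5% of enolase in untreated to 43.0% in CYT cells, and Pdk2 is at 58.5% of the kinases in CYT and 54.5% in IL-1βlow + CYT cells.

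Around these enzymes, 62 further genes of glucose handling were listed by step, of which 55 were tested. With CYT 16 rose and 13 fell, and between IL-1βlow + CYT and CYT cells 13 were higher and 8 lower. The shares called, 52.7% and 38.2%, were close to those of all genes, 49.7% and 36.3%. The glucose transporter Slc2a1 (GLUT1) went from 46.4 ± 5.29 CPM in untreated cells to 152 ± 16.9 with CYT, and stood at 45.6 ± 5.63 with IL-1βlow + CYT (SD, n = 3), with log2 fold changes of 1.71 and -1.73. Slc2a3 (GLUT3) followed at 1.44 and -1.36. The β-cell transporter Slc2a2 (GLUT2) was not called with CYT (-0.13) and was higher by 0.59 in IL-1βlow + CYT than in CYT cells. Pklr, the liver-type pyruvate kinase, fell by 1.05 with CYT and was higher by 1.02 after preconditioning. The regulators of phosphofructokinase differed, Pfkfb3 at 0.34 and -0.78 and Pfkfb1 at -1.47 and 1.53. Pfkfb1 was barely detected, at 9 to 38 counts per library. Pfkfb4 fell with CYT and was not called between IL-1βlow + CYT and CYT cells. Pfkfb2, at a mean of 322 CPM in untreated cells, was not called with CYT and was lower after preconditioning.

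At the pyruvate branch, the monocarboxylate transporter Slc16a1 (MCT1), which like Ldha is normally scarce in β-cells, rose by 1.22 with CYT and was lower by -0.45 after preconditioning, at 16.1 ± 2.83, 37.3 ± 1.18 and 27.3 ± 1.32 CPM in untreated, CYT and IL-1βlow + CYT cells (SD, n = 3). The subunits of the mitochondrial pyruvate carrier split, Mpc1 rising by 0.50 and Mpc2 falling by 0.68 with CYT. Pdhx, the E3-binding protein of pyruvate dehydrogenase, rose by 0.85, opposite to Pdhb. Gpd1, the cytosolic partner of Gpd2 in the glycerol phosphate shuttle, fell by 2.20 and was higher by 0.84 after preconditioning. The aspartate-glutamate carrier Slc25a13 fell by 0.65 while Slc25a12 was not called (0.10). Of 7 other genes of the cycle and complex II, Sdhb rose, Idh1 fell by 0.86 and the other 5, both aconitases among them, were not called. In the pentose phosphate pathway, Pgd, Rpia and Tkt rose and Pgls fell. Of 4 gluconeogenic genes, Fbp1, Fbp2 and Pck2 rose with CYT, beside 25.2% of all genes. Fbp1 and Fbp2 were barely detected, at means of 1.02 and 0.509 CPM in untreated and 3.55 and 1.71 in CYT cells. Pck2 went from 45.1 to 83.6 CPM.

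**Figure D5:**
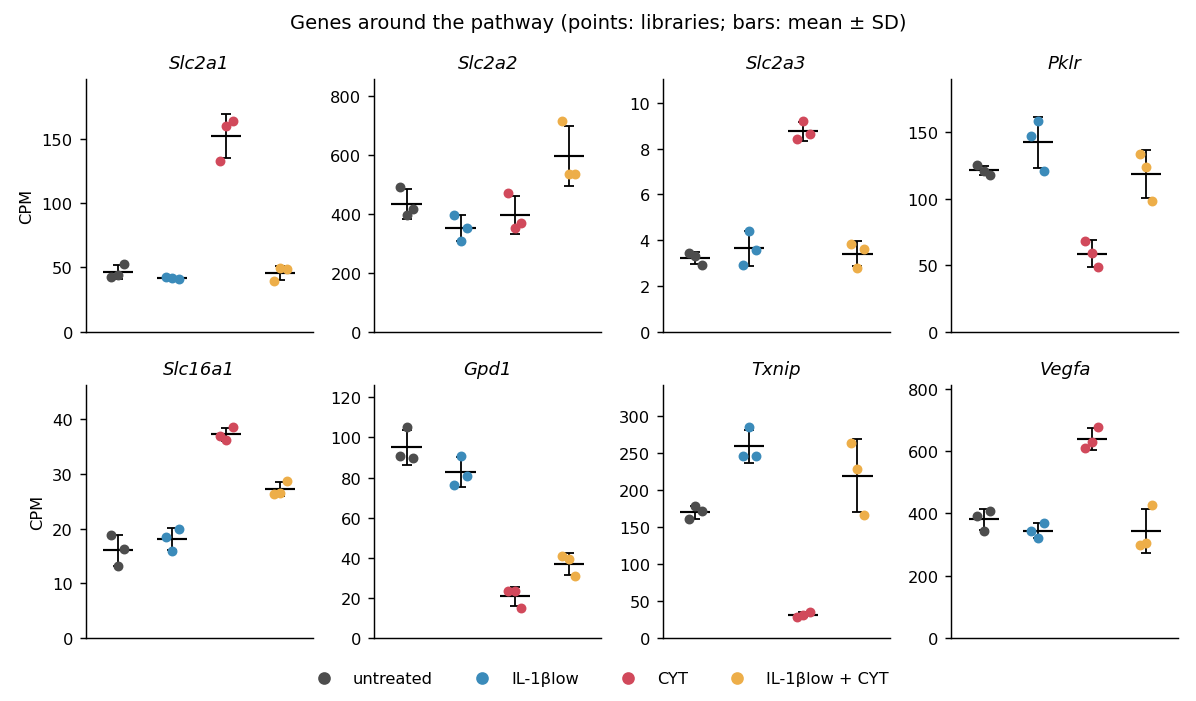
CPM (vertical axis, from 0) of 8 genes around the enzymes in the 4 groups; points are libraries in replicate order, long bars means and short bars 1 SD. Slc2a1 averages 152 CPM in CYT cells against 46.4 in untreated and 45.6 in IL-1βlow + CYT cells, and Txnip 31.5 against 170 and 219.

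Regulators with known targets among these enzymes were counted as well. Of 15 genes of the hypoxia response, which raises several glycolytic enzymes, 6 rose with CYT (Epas1, Vhl, Vegfa, P4ha1, Kdm3a and Mxi1), 0 fell and 9 were not called, Hif1a among the latter at 0.32. In IL-1βlow + CYT cells 9 of the 15 were lower than in CYT cells and 0 were higher. Over all genes 25.2% rose and 24.5% fell with CYT, and 19.2% were lower and 17.1% higher in the second comparison. Of 7 tested genes of the glucose-responsive factor ChREBP and its targets, Mlxipl, Txnip, Arrdc4, Fasn and Acaca fell with CYT and were higher after preconditioning, while Mlx rose. Txnip went from 170 ± 8.92 CPM in untreated cells to 31.5 ± 3.12 with CYT, and stood at 219 ± 49.5 with IL-1βlow + CYT (SD, n = 3). Myc rose by 2.06 with CYT and was lower by -2.46 after preconditioning, and Esrra and Nrf1 rose by 1.08 and 1.10.

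Each library held 15812640 to 20246806 counts, of which the 42 genes took 0.601% to 0.689% and the ribosomal Rn45s 6.89% to 11.1%. The 14 β-cell markers were all detected, and summed to 53476 to 63303 CPM in untreated and 20308 to 22783 in CYT cells. With CYT 12 of them fell, beside 24.5% of all genes, while Abcc8 rose by 0.73, and their part in the enzyme results was not tested. The acinar markers summed to at most 0.117 CPM in any library, and the immune markers Ptprc and Itgam had 0 counts. The immune list as a whole summed to 0.355 to 1.15 CPM in untreated and 3.04 to 4.52 in IL-1βlow + CYT cells, in the latter mostly from Adgre1. The list of other islet cell types summed to 187 to 368 CPM in untreated, 25.4 to 64.9 in CYT and 74.5 to 152 in IL-1βlow + CYT cells, mostly from Gcg, which had a log2 fold change of -2.83 with CYT. The fibroblast and endothelial list summed to 12.1 to 16.3 CPM in untreated, 6.06 to 7.11 in CYT and 8.26 to 10.9 in IL-1βlow + CYT cells. The part of these lists in the enzyme results was not tested. Among other genes used to scale PCR, Hprt1 and Tbp were not called with CYT (-0.10 and 0.03), Actb and Rplp0 rose by 0.42 and 0.44 and Ppia fell by 0.47. In the GRCr8 annotation 9 of the 42 genes overlap another gene with counts, among them Aldoa, Eno2 and Pdk2, whose partners held 681, 152 and 18 counts.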

How the data were processed

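The authors extracted total RNA from INS-1E cells, prepared TruSeq libraries of polyA RNA, trimmed reads (rfastp), mapped these on mRatBN7.2 (Rsubread) and deposited raw counts per gene symbol from featureCounts. Strand and multi-mapping settings are not given in the sources used here. From these deposited counts, all 12 libraries were fitted together with edgeR 4.0.16 in R 4.3.3 (TMM, genes over 1 CPM in at least 2 libraries, glmQLFTest). The study's exactTest and DESeq2 1.42.0 were alternatives. The interaction is (IL-1βlow + CYT against IL-1βlow) minus (CYT against untreated). Log2 fold changes are relative to untreated or CYT cells as named, and SE is the log2 fold change over the root of F.

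Every library was given for the 3 called enzymes of each step with the largest CYT change and for Hk1, Hk2, Gapdh, Ldha, Pc and Gpd2. The members and lists were chosen with earlier results of these data known. Same-numbered IL-1βlow + CYT and CYT libraries deviated together (r of 0.116, 0.475 and 0.453 over genes, although for replicate 1 a library of another number reached 0.192). For this comparison and the interaction, the fit with the replicate number as a block is therefore given where it changed a call. Beside the enzymes named above, the block also called Dld (adjusted p = 0.00815), Idh3g (0.00929) and Me1 (0.00723) lower for CYT against untreated. For IL-1βlow + CYT against untreated it also called Pdhb (0.00468) lower and Suclg1 (0.00861) and Suclg2 (0.00845) higher. There Pdhb was called as well by exactTest (0.00914), by DESeq2 (0.00679) and with at least 10 counts in every library (0.00705). DESeq2 also called Suclg2 (0.00746) and Mdh1 (0.00670) higher there. On simulated counts for CYT against untreated (14061 genes), 67% of 200 genes changed 2-fold were recovered, 94.7% above 10 CPM, with 1 false call. The setting differs from the data, where 49.7% of genes tested were called and most called enzymes changed less than 2-fold. These rates therefore do not give the recovery or error for the enzymes, nor for the other comparisons. The 95% intervals come from the SE of the fit and include the spread between libraries, and the limits at 0 counts cover counting error only. Gpd1l and Amy2a were not analysed here, and some listed genes are not reported here.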

Additional observations from a re-analysis of the deposited data

Results flagged for a closer look

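For 11 of the 38 enzymes the CYT response differed with and without preconditioning by the interaction test (edgeR, adjusted p under 0.01), beside 22.6% of all genes tested. In 7 of them the interaction was negative. Aldoa changed by 1.36 without and 0.34 with preconditioning, an interaction of -1.02 on the log2 scale (SE 0.167, adjusted p = 0.000378). Eno2 had -0.75, Got1 -0.75, Idh2 -0.71, Pdk2 -0.69 and Pfkp -0.55. For Pdk2 the response to CYT was 1.74 without and 1.05 with preconditioning, with means of 23.1 ± 2.83 CPM in untreated, 34.5 ± 3.26 in IL-1βlow, 77.0 ± 3.43 in CYT and 71.4 ± 7.04 in IL-1βlow + CYT cells (SD, n = 3). Suclg1 had -0.44 (adjusted p = 0.00834), a call lost without untreated replicates 1 and 3, IL-1βlow replicates 1 and 2, CYT replicate 2 and IL-1βlow + CYT replicates 2 and 3, each left out in turn (adjusted p up to 0.0239).

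The interaction was positive for Gpd2 at 0.91 (SE 0.139, adjusted p = 0.000226), with a CYT response of -1.84 without and -0.93 with preconditioning. It was also positive for Pdhb at 0.70, Pdk3 at 0.69 and Me1 at 0.54. The Pdk3 call was lost without untreated replicate 1 or IL-1βlow replicate 1 (adjusted p up to 0.0106). The Me1 call (adjusted p = 0.00936) was lost in 9 of 12 fits that left out a library, those without untreated replicate 3, IL-1βlow replicate 3 and IL-1βlow + CYT replicate 2 keeping it (adjusted p up to 0.0365), and also with RLE size factors, total counts, no filter or at least 10 counts in every library. Without 1 library other enzymes passed: Ldhb without CYT replicate 1 (0.68), Pfkl without CYT replicate 3 (-0.49) or IL-1βlow + CYT replicate 2 (-0.48), and Eno1 (0.65) and Ogdh (0.43) without IL-1βlow + CYT replicate 3. With the replicate number as a block, Eno1 (0.54, adjusted p = 0.00279), Idh3b (-0.37, 0.00713), Ogdh (0.36, 0.00775) and Pfkl (-0.39, 0.00719) also passed. Idh3b passed as well by DESeq2 (0.00353) and with at least 10 counts in every library (0.00787), and Eno1 with no filter (0.00831).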

How the results depend on the processing

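Over the 54 called enzyme values in the 5 comparisons, 1166 alternative values were computed. Of these 1010 kept their direction and call, 156 kept their direction and lost the call, and 0 reversed. The setting of adjusted p under 0.05 uses the main fit, so its 54 values keep their call by construction. Neither it nor the fold minimum can reverse a direction. Some fits that left out a library dropped one outside the comparison. The total of 1010 therefore does not measure how stable the calls are. With the study's fold minimum the counts of called enzymes were 5 for CYT against untreated, 0 for IL-1βlow + CYT against CYT, 2 for IL-1βlow + CYT against untreated and 1 for the interaction. Fitting only the groups compared gave 9 for IL-1βlow + CYT against CYT. For IL-1βlow against untreated the count was 1, Pdk2, with no filter, with the replicate block, at adjusted p under 0.05, with exactTest and with DESeq2. For IL-1βlow + CYT against untreated it was 8 with the replicate block, 9 at adjusted p under 0.05 and 8 with DESeq2, and for the interaction 17 at adjusted p under 0.05. Leaving out each library in turn gave 18 to 23 enzymes for CYT against untreated, 10 to 17 for IL-1βlow + CYT against CYT, 2 to 6 for IL-1βlow + CYT against untreated, 0 to 1 for IL-1βlow against untreated and 8 to 11 for the interaction. The replicate block gave 26 for CYT against untreated, 21 for IL-1βlow + CYT against CYT, where it changed the calls of Gapdh, Got2 and Pc, and 15 for the interaction. In comparisons other than IL-1βlow + CYT against CYT, same-numbered libraries did not all deviate together, so their numbers are not taken as pairs. Why counts moved was not tested, beyond the fewer libraries in the fits that left some out.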
